A study of Drosophila melanogaster with 27 samples.

Results

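Overgrown imaginal discs in which the transcription factor Stat92E was knocked down were compared with normal discs, to describe which genes still stood away from their normal level. The comparison used the 3 Stat92E-RNAi tumour libraries (eye-antennal disc replicate 2, leg disc replicates 1 and 2) and the 4 control libraries (replicates 1 and 2 of each of these discs). These are 7 of the 27 RNA-seq libraries of the study, and the disc was a term of the model. All 15348 genes of the count table were members, and 9020 of them passed a minimum of 1 CPM (the usual counts-per-million scale, here relative to all reads assigned to genes) in at least 2 of the 7 libraries and were tested. The study sequenced RNA from Drosophila melanogaster imaginal discs of control larvae, of tumours made by oncogenic Ras together with loss of scrib, and of the same tumours carrying a hairpin against 1 further gene.

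Control discs carried hh-Gal4 and UAS-GFP with a UAS-luc-RNAi hairpin against luciferase, which has no target in the fly, and were collected on day 5. Stat92E-RNAi tumours carried UAS-scrib-RNAi and UAS-Ras[v12] with hh-Gal4, UAS-GFP and the hairpin UAS-Stat92E-TRiP[HMS00035]-RNAi, and were collected on day 8. The tumours of reference, called luciferase tumours here, carried UAS-scrib-RNAi and UAS-Ras[v12] with hh-Gal4, UAS-GFP and UAS-luci-RNAi, and were collected on day 9 (replicate 1) or day 11 (replicate 2). All libraries were labelled as larvae of the wandering stage of the third instar, and each pooled hand-dissected discs of 35 to 50 larvae. Day of collection followed genotype exactly, so that age and genotype cannot be told apart in any comparison here. All Stat92E-RNAi libraries also have a form of name in the labels that no control or luciferase tumour library has. What this form stands for is not stated, and it cannot be told apart from the Stat92E-RNAi genotype in comparisons with these groups. hh-Gal4 is active in the posterior compartment, so that the anterior cells of each disc did not carry out the knockdown or the transformation. Stat92E was targeted with 1 hairpin line, and only 1 eye-antennal library of this genotype was used. Libraries are bulk RNA, in which fewer cells of a type and less RNA per cell cannot be told apart.

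In Drosophila the secreted ligands Upd1, Upd2 and Upd3 bind the receptor Domeless, the kinase Hopscotch then phosphorylates Stat92E, and Stat92E enters the nucleus and activates targets that include its own inhibitor Socs36E. In imaginal discs the pathway promotes growth and is switched on after wounding and in tumours. Oncogenic Ras together with loss of the polarity gene scrib gives invasive overgrowth in discs, with activity of the JNK stress kinase pathway and a delay of the transition to the pupa.

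Reads assigned to genes ranged from 13.1 to 16 M reads in control, from 13.5 to 14.4 M in Stat92E-RNAi and from 11.7 to 14.1 M in luciferase tumour libraries. The counting program's line for alignments that are not unique held 16.2% to 22.9% of all lines in control, 43.0% to 54.0% in Stat92E-RNAi and 54.4% to 75% in luciferase tumour libraries. The part of this difference in the results was not tested. Replicates of the same disc and genotype correlated at 0.973 (control eye-antennal), 0.945 (control leg) and 0.980 (Stat92E-RNAi leg) in log CPM. On the first principal component of the 7 libraries, which held 50.8% of the variance, control leg 2 lay at -12.8, the other controls between 34.0 and 73.8, and the Stat92E-RNAi libraries between -67.8 and -22.9. On this component alone, control leg 2 stood nearer to the Stat92E-RNAi libraries than the other control libraries did. On the second component it lay at -54.7 and Stat92E-RNAi eye-antennal 2 at 59.8. It was the highest control library for 353 of the 1507 genes that rose (23.4%), against 1801 of all 9020 tested genes (20%). The disc labels were checked with ey, a gene of the eye primordium. It stood at 107 and 114 CPM in control eye-antennal and 6.48 and 4.19 CPM in control leg libraries, and at 74.1 CPM in the Stat92E-RNAi eye-antennal and 1.39 and 7.31 CPM in the Stat92E-RNAi leg libraries.

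In the text, values for single libraries are given in CPM, for control in the order eye-antennal 1, eye-antennal 2, leg 1 and leg 2, and for Stat92E-RNAi in the order eye-antennal 2, leg 1 and leg 2. Changes are log2 fold changes of Stat92E-RNAi against control unless stated otherwise, with their standard error, from edgeR's quasi-likelihood test with Benjamini-Hochberg adjustment over all tested genes. A gene is said to rise or fall where its adjusted p was below 0.05. Counts for gene lists are to be read against the 16.7% of all tested genes that rose and the 14.8% that fell. These shares hold for the fit of all 7 libraries only. Fits that leave out 1 library called 962 to 1538 rises and 611 to 1142 falls over all genes. List counts from such a fit are to be read against the calls of that fit.

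Of the 9020 tested genes, 2843 (31.5%) differed between Stat92E-RNAi tumours and control discs. 1507 genes (16.7%) were higher and 1336 (14.8%) were lower, and the change was at least 2-fold for 425 (4.71%) and 356 (3.95%) of them. Every Stat92E-RNAi library stood above every control library of the same disc for 2718 genes (30.1%) and below for 1805 (20%). Scaled by total counts alone instead of by TMM, 1826 rose and 1053 fell, so that rises were 63.4% of the calls, against 53% with TMM. Without Stat92E-RNAi eye-antennal 2, 962 rose and 611 fell. Without Stat92E-RNAi leg 2, 792 fell. For orientation, luciferase tumours differed from control discs in 4032 of 9217 tested genes (43.7%), 2299 higher (24.9%) and 1733 lower (18.8%), by at least 2-fold 869 (9.43%) and 557 (6.04%). Stat92E-RNAi differed from luciferase tumours in 408 of 8993 genes (4.54%), 203 higher (2.26%) and 205 lower (2.28%), by at least 2-fold 72 (0.801%) and 115 (1.28%). These comparisons share libraries, so that their values are set side by side below without a test of likeness.

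The targeted gene was checked first. Stat92E (FBgn0016917) stood at 228, 253, 248 and 247 CPM in control and 170, 172 and 179.9 CPM in Stat92E-RNAi libraries, and every Stat92E-RNAi library was below every control library. The change was -0.55 ± 0.06, adjusted p = 0.00158, so that most of the transcript was still present in RNA of whole discs. Luciferase tumours had 219, 246, 195 and 218 CPM, and the Stat92E-RNAi change against them was -0.36 ± 0.08, adjusted p = 0.0512. The transcript of scrib (FBgn0263289), whose hairpin both tumour genotypes carry, stood at 389, 429, 358 and 351 CPM in control and 328, 277 and 248 CPM in Stat92E-RNAi libraries, with no overlap and a change of -0.44 ± 0.07, adjusted p = 0.00521. Ras85D (FBgn0003205), the fly gene for Ras, stood at 273, 264, 282 and 289.7 CPM in control and 458, 481 and 496 CPM in Stat92E-RNAi libraries, a change of 0.71 ± 0.05, adjusted p = 0.000607. Reads of the UAS-Ras[v12] transgene may be counted in this gene. Luciferase tumours had 1000, 690, 1027 and 661 CPM of Ras85D, and each Stat92E-RNAi library was below those of the same disc. The change against luciferase tumours was -0.88 ± 0.22, adjusted p = 0.0656. The part of this lower level in the other differences between the tumour genotypes was not tested. For hh, whose enhancer drives the Gal4 line, the values were 53.5, 55.3, 65.9 and 70.2 CPM in control and 104, 52.3 and 66.7 CPM in Stat92E-RNAi libraries, the groups overlapped, and the change was 0.22 ± 0.24, adjusted p = 0.505.

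Of the JAK/STAT genes, 7 rose (46.7%) and 3 fell (20%) out of 15 tested. The median change was 0.32, against -0.01 over all tested genes. Of the 4 tested reported outputs 1 rose and 1 fell, 3 changes were below 0, and the median was -0.17. All 3 ligand genes remained above normal. upd1 (FBgn0004956) stood at 3.98, 4.53, 6.77 and 10.1 CPM in control and 30.7, 48.3 and 65.6 CPM in Stat92E-RNAi libraries, with no overlap and a change of 2.73 ± 0.18, adjusted p = 0.000596. upd2 (FBgn0030904) stood at 0.459, 1.0, 1.46 and 4.81 CPM in control and 17.1, 24.7 and 40.8 CPM in Stat92E-RNAi libraries, a change of 3.71 ± 0.50, adjusted p = 0.00359. For upd2 the change was 4.49 (adjusted p = 0.00223) without control leg 2. upd3 (FBgn0053542) stood at 0.229, 0.933, 1.68 and 2.25 CPM in control and 9.66, 28.4 and 38.5 CPM in Stat92E-RNAi libraries, a change of 3.99 ± 0.35, adjusted p = 0.00103. For each ligand gene the lowest Stat92E-RNAi library was above the highest control library, and the eye-antennal library was the lowest of the 3 Stat92E-RNAi libraries. Luciferase tumours had 45, 71.1, 86.2 and 93.8 CPM of upd1, 28.2, 32.5, 63.6 and 49.5 CPM of upd2 and 15.2, 24, 63.5 and 58.5 CPM of upd3. Against them upd3 was lower in Stat92E-RNAi tumours (-0.96 ± 0.18, adjusted p = 0.0372). Against luciferase tumours upd3 was at -0.95 (adjusted p = 0.102) without Stat92E-RNAi eye-antennal 2, -0.87 (adjusted p = 0.115) without Stat92E-RNAi leg 1, -1.1 (adjusted p = 0.0855) without Stat92E-RNAi leg 2, -0.92 (adjusted p = 0.103) without luciferase tumour leg 1 and -1.02 (adjusted p = 0.0673) without luciferase tumour leg 2.

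The receptor gene dome stood at 189.6, 212, 221 and 239 CPM in control and 205, 250.4 and 243 CPM in Stat92E-RNAi libraries, with overlapping groups and a change of 0.02 ± 0.07, adjusted p = 0.877, and hop, the kinase gene, had a change of -0.03 ± 0.07, adjusted p = 0.755. The feedback inhibitor gene Socs36E (FBgn0041184), a direct target of the pathway, stood at 80.7, 90.6, 89.7 and 113 CPM in control and 178, 208 and 262 CPM in Stat92E-RNAi libraries. Every Stat92E-RNAi library was above every control library, with a change of 1.09 ± 0.13, adjusted p = 0.00234. Luciferase tumours were higher again at 446, 425, 611 and 479.6 CPM, and the Stat92E-RNAi libraries lay between both groups without overlap. The change against luciferase tumours was -1.29 ± 0.14, adjusted p = 0.0136. Against luciferase tumours Socs36E was at -1.21 (adjusted p = 0.0581) without Stat92E-RNAi leg 1. Socs44A, a related SOCS-box gene, had a change of 0.32 ± 0.06, adjusted p = 0.0112. ken, which encodes a transcriptional repressor of some Stat92E targets, stood at 40.5, 39.9, 29.7 and 29.5 CPM in control and 103, 64.2 and 115 CPM in Stat92E-RNAi libraries, without overlap, a change of 1.44 ± 0.19, adjusted p = 0.00333. chinmo (FBgn0086758), a BTB zinc-finger gene that keeps cells in an early identity and that Stat92E is known to activate, stood at 27.3, 22.1, 20.3 and 11.1 CPM in control and 156, 115 and 199 CPM in Stat92E-RNAi libraries, with no overlap and a change of 3.01 ± 0.29, adjusted p = 0.00157. Its level in luciferase tumours was 179, 210.2, 303 and 286 CPM. Falls were recorded for Stat92E itself, for the stress peptide gene TotA, another reported output, and for Su(var)2-10, which encodes a SUMO ligase that inhibits Stat92E. TotA stood at 74.2, 9.73, 3.64 and 11.3 CPM in control and 1.34, 0.696 and 0.844 CPM in Stat92E-RNAi libraries, a change of -4.07 ± 1.02, adjusted p = 0.0272. Among controls it was highest in eye-antennal 1 and lowest in leg 1, as were the summed fat body markers given below. The part of adhering tissue in its fall was not tested. For TotA the change was -3.3 (adjusted p = 0.156) without Stat92E-RNAi eye-antennal 2, -4.2 (adjusted p = 0.0624) without Stat92E-RNAi leg 1, -4.36 (adjusted p = 0.0773) without Stat92E-RNAi leg 2, -3.2 (adjusted p = 0.0129) without control eye-antennal 1 and -3.71 (adjusted p = 0.0893) without control leg 2. Su(var)2-10 had a change of -0.27 ± 0.06, adjusted p = 0.0208, and its adjusted p was 0.133 without Stat92E-RNAi eye-antennal 2, 0.0504 without control eye-antennal 2 and 0.085 without control leg 2. The falls of this list numbered 1 without Stat92E-RNAi eye-antennal 2 and 1 without control leg 2.

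**Figure D1:**
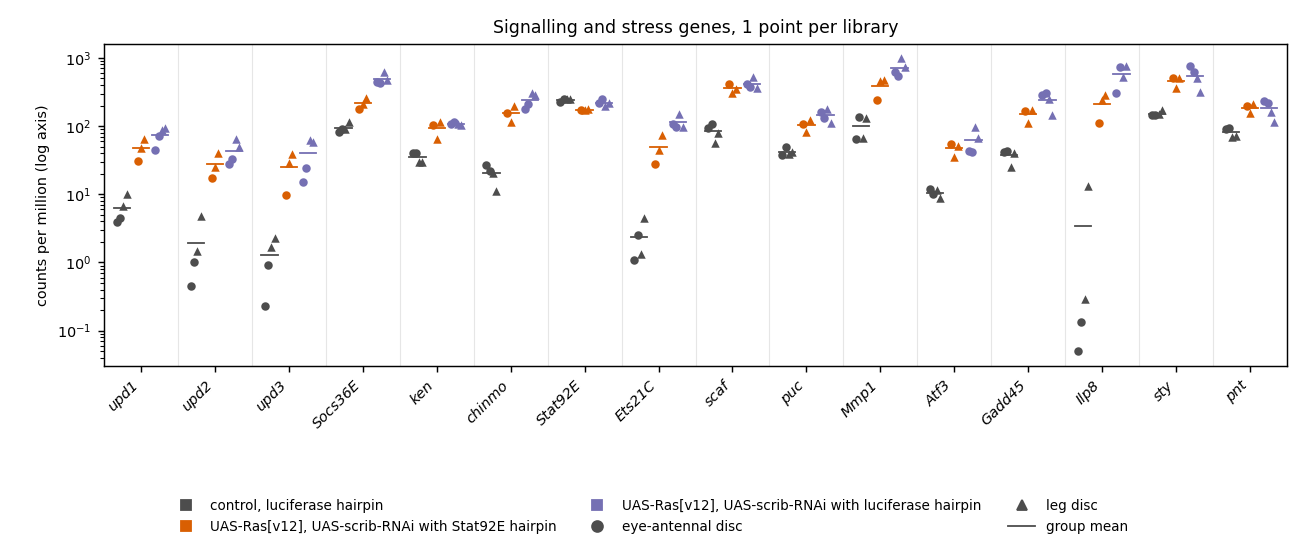
Level of 16 signalling genes in CPM, side by side on 1 shared log axis, with 1 point per library (circles eye-antennal, triangles leg). Control discs, luciferase tumours and Stat92E-RNAi tumours are shown. Short lines are the mean over both discs, values under 0.05 CPM are drawn at 0.05, and the 3 upd genes, chinmo, Ets21C, Atf3 and Ilp8 show all Stat92E-RNAi points above all control points.

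Among JNK pathway genes most reported outputs stood above normal, and most kinases passed no test. Of 21 tested members 10 rose (47.6%) and 1 fell (4.76%), with a median of 0.40. The rises numbered 6 without Stat92E-RNAi leg 2, and the falls 0 without Stat92E-RNAi eye-antennal 2 and 2 without control leg 1. By role, 0 rose and 1 fell of 7 kinases, 3 rose and 0 fell of 3 transcription factors, and 6 rose and 0 fell of 8 reported outputs. Without Stat92E-RNAi eye-antennal 2 these rises were 1 transcription factor and 5 outputs. Of the AP-1 genes, kay had a change of 0.65 ± 0.20, adjusted p = 0.0473, with adjusted p 0.175 without Stat92E-RNAi eye-antennal 2, 0.121 without Stat92E-RNAi leg 2, 0.0931 without control eye-antennal 1, 0.0694 without control eye-antennal 2 and 0.113 without control leg 1. The other AP-1 gene, Jra, had a change of 0.48 ± 0.11, adjusted p = 0.0198, with adjusted p 0.058 without Stat92E-RNAi eye-antennal 2 and 0.0511 without Stat92E-RNAi leg 2. The TNF ligand gene egr stood at 56.3, 50, 29.8 and 34.6 CPM in control and 33.9, 31.8 and 28.6 CPM in Stat92E-RNAi libraries, with overlapping groups and a change of -0.37 ± 0.15, adjusted p = 0.10. The TNF receptor gene grnd stood at 110.4, 94.2, 115 and 109 CPM in control and 147, 149.6 and 148 CPM in Stat92E-RNAi libraries, without overlap, a change of 0.40 ± 0.07, adjusted p = 0.0059. The JNK gene bsk had a change of -0.33 ± 0.06, adjusted p = 0.0088. For bsk the change was -0.23 (adjusted p = 0.0721) without Stat92E-RNAi eye-antennal 2.

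Ets21C (FBgn0005660), an ETS-domain transcription factor gene that JNK induces in tumours, stood at 1.07, 2.53, 1.31 and 4.44 CPM in control and 27.4, 45.3 and 74.8 CPM in Stat92E-RNAi libraries. All Stat92E-RNAi libraries were above all controls, with a change of 4.12 ± 0.47, adjusted p = 0.00231, and luciferase tumours had 108, 97.3, 152 and 98 CPM. scaf, which encodes a secreted inactive protease, stood at 94.5, 109, 56.2 and 80.2 CPM in control and 409.6, 306 and 355 CPM in Stat92E-RNAi libraries, without overlap, a change of 2.11 ± 0.16, adjusted p = 0.000714. puc, the gene of the phosphatase that switches JNK off, stood at 37.9, 50.1, 38.7 and 42 CPM in control and 108, 82.6 and 122 CPM in Stat92E-RNAi libraries, also without overlap, a change of 1.26 ± 0.16, adjusted p = 0.00275. The matrix metalloprotease gene Mmp1 (FBgn0035049), which tumour cells need to cross basement membrane, stood at 65.1, 138, 66.9 and 129 CPM in control and 242, 452 and 478 CPM in Stat92E-RNAi libraries. Its groups did not overlap, and the change was 1.8 ± 0.39, adjusted p = 0.0177. For Mmp1 the change was 1.72 (adjusted p = 0.0549) without Stat92E-RNAi leg 2. Timp, which encodes an inhibitor of such proteases, had a change of 1.05 ± 0.19, adjusted p = 0.0088. cher, the filamin gene, stood at 260.1, 304, 382 and 384 CPM in control and 587, 629.7 and 655 CPM in Stat92E-RNAi libraries, a change of 0.81 ± 0.09, adjusted p = 0.00167. All of Ets21C, scaf, puc and cher were called in each of the 7 fits that leave out 1 library.

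Of 17 EGFR and Ras genes 6 rose (35.3%) and 3 fell (17.6%), with a median of 0.15. The falls numbered 1 without Stat92E-RNAi eye-antennal 2. Among the transcription factors and outputs of the pathway 5 rose and 0 fell of 7. sty (FBgn0014388), the feedback inhibitor Sprouty, stood at 146, 145, 149 and 169.8 CPM in control and 501, 368 and 505 CPM in Stat92E-RNAi libraries, with no overlap and a change of 1.53 ± 0.13, adjusted p = 0.00103. pnt, the ETS factor gene that acts at the end of the cascade, stood at 91.8, 94.5, 70.1 and 72.2 CPM in control and 200, 153 and 207 CPM in Stat92E-RNAi libraries, a change of 1.19 ± 0.11, adjusted p = 0.00129. kek1, which encodes a transmembrane inhibitor of the receptor, stood at 248, 252, 267 and 248 CPM in control and 595, 450.5 and 521 CPM in Stat92E-RNAi libraries, a change of 1.00 ± 0.08, adjusted p = 0.000919. The libraries of each of these genes were separated, and luciferase tumours had 759, 618, 500.3 and 311 CPM of sty and 667, 656, 429.6 and 328 CPM of kek1. The secreted inhibitor gene aos rose by 1.11 ± 0.26, adjusted p = 0.022, and by 1.2 (adjusted p = 0.0558) without control leg 2. In the other direction, Dsor1, the MEK of the cascade, had a change of -0.40 ± 0.06, adjusted p = 0.0043, and the ligand gene spi one of -0.43 ± 0.09, adjusted p = 0.0121. For spi the change was -0.38 (adjusted p = 0.0713) without Stat92E-RNAi eye-antennal 2.

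Genes of the bZIP stress response were also high, with 5 rises (62.5%) and 1 fall (12.5%) among 8 genes and a median of 0.93. Atf3 (FBgn0028550), a stress-induced transcription factor gene, stood at 11.9, 10.1, 11.4 and 8.81 CPM in control and 54.2, 35.2 and 51.8 CPM in Stat92E-RNAi libraries, with no overlap and a change of 2.13 ± 0.16, adjusted p = 0.00070. Gadd45, a growth arrest and damage response gene, stood at 41.1, 43.2, 24.8 and 40.4 CPM in control and 167, 112 and 174 CPM in Stat92E-RNAi libraries, a change of 2.01 ± 0.22, adjusted p = 0.00198. Irbp18, which encodes a C/EBP-type partner of Xrp1, stood at 14.9, 13.3, 14.4 and 15.2 CPM in control and 32.9, 26.7 and 33.1 CPM in Stat92E-RNAi libraries. It was above control in every Stat92E-RNAi library (1.04 ± 0.11, adjusted p = 0.00157), and luciferase tumours had 81.9, 54.3, 73.9 and 45.2 CPM. Xrp1 itself had a change of 0.83 ± 0.15, adjusted p = 0.00829. For Xrp1 the change was 0.82 (adjusted p = 0.0527) without Stat92E-RNAi eye-antennal 2. The fall in this list, that of the proline synthesis gene P5CS (-2.19), ended in 4 of the 7 fits that leave out 1 library, with adjusted p 0.0728 without Stat92E-RNAi eye-antennal 2, 0.0662 without Stat92E-RNAi leg 1, 0.070 without Stat92E-RNAi leg 2 and 0.0523 without control eye-antennal 1.

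Ilp8 (FBgn0036690) encodes the insulin-like peptide by which damaged or overgrown discs delay the transition to the pupa. It stood at 0, 0.133, 0.291 and 13.1 CPM in control and 112, 239 and 284 CPM in Stat92E-RNAi libraries, so that 3 control libraries were at or near 0 and control leg 2 was not. All Stat92E-RNAi libraries were above all controls, with a change of 5.94 ± 1.02, adjusted p = 0.00875. For Ilp8 the change was 5.21 (adjusted p = 0.0426) without Stat92E-RNAi eye-antennal 2 and 10 (adjusted p = 0.000111) without control leg 2. Luciferase tumours had 301, 729, 533 and 752 CPM. The growth factor gene Pvf1, a PDGF- and VEGF-like ligand, stood at 10.5, 12.7, 11.4 and 14.1 CPM in control and 17.2, 37.9 and 35 CPM in Stat92E-RNAi libraries, a change of 1.10 ± 0.23, adjusted p = 0.0139. ImpL2, a secreted insulin binding protein gene, stood at 339, 373, 84.4 and 127 CPM in control and 426, 398 and 461 CPM in Stat92E-RNAi libraries. Every Stat92E-RNAi library was above control of the same disc, and the change was 1.31 ± 0.40, adjusted p = 0.0526, short of the threshold. In all, 3 rose (37.5%) and 1 fell (12.5%) of 8 genes for systemic signals. The third rise, that of the ligand gene Pvf2 (0.76), had adjusted p 0.163 without Stat92E-RNAi eye-antennal 2, 0.0558 without Stat92E-RNAi leg 1, 0.0779 without Stat92E-RNAi leg 2, 0.0592 without control eye-antennal 1, 0.060 without control eye-antennal 2 and 0.0787 without control leg 1. The fall, that of the insulin-like peptide gene Ilp6 (-1.7), had adjusted p 0.141 without Stat92E-RNAi eye-antennal 2, 0.118 without Stat92E-RNAi leg 2, 0.0595 without control eye-antennal 1, 0.0753 without control eye-antennal 2 and 0.0788 without control leg 2.

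Growth-control genes of the Hippo pathway gave 3 rises and 4 falls among 20, with a median of -0.05. Their shares, 15% and 20%, were near those of all tested genes (16.7% and 14.8%). The rises numbered 5 without Stat92E-RNAi leg 1, and the falls 2 without Stat92E-RNAi eye-antennal 2. The glypican gene dally stood at 339, 405, 393 and 429.5 CPM in control and 719, 664 and 787 CPM in Stat92E-RNAi libraries, a change of 0.81 ± 0.10, adjusted p = 0.00233. Myc, the growth regulator, stood at 204, 219, 235 and 234 CPM in control and 403, 339 and 391 CPM in Stat92E-RNAi libraries, a change of 0.70 ± 0.08, adjusted p = 0.00224. fj, which encodes a Golgi kinase that acts on the Fat receptor, had a change of 0.56 ± 0.10, adjusted p = 0.00879. By contrast the caspase inhibitor gene Diap1 (FBgn0260635), also an output of the pathway, stood at 585, 637, 596 and 686 CPM in control and 378, 399 and 375 CPM in Stat92E-RNAi libraries, below control in every library, with a change of -0.77 ± 0.08, adjusted p = 0.00167. The kinase gene wts had a change of -0.36 ± 0.06, adjusted p = 0.00556, and yki, the coactivator gene, one of -0.09 ± 0.07, adjusted p = 0.374.

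Large departures were found among genes that respond to the steroid ecdysone, which times the larval and pupal stages. Of 14 response genes 3 rose (21.4%) and 8 fell (57.1%), with a median change of -2.56. Over the whole list of 19 genes for stage identity, 5 rose (26.3%) and 8 fell (42.1%). The falls numbered 3 without Stat92E-RNAi eye-antennal 2, 5 without Stat92E-RNAi leg 2 and 3 without control leg 2. ImpE2 (FBgn0001254), an ecdysone-induced gene of discs, stood at 5064, 6470, 4685 and 6109 CPM in control and 157, 722 and 177 CPM in Stat92E-RNAi libraries. Every Stat92E-RNAi library was far below every control library, with a change of -4.23 ± 0.68, adjusted p = 0.00731. For ImpE2 the change was -3.61 (adjusted p = 0.0337) without Stat92E-RNAi eye-antennal 2 and -5.09 (adjusted p = 0.000749) without Stat92E-RNAi leg 1. ImpE3, a second gene of this kind, stood at 369, 507, 265 and 405 CPM in control and 36.8, 66.7 and 19.8 CPM in Stat92E-RNAi libraries, a change of -3.25 ± 0.49, adjusted p = 0.0051. For ImpE3 the change was -3.84 (adjusted p = 0.00192) without Stat92E-RNAi leg 1. Eip78C, which encodes a nuclear receptor of the response, stood at 97.6, 129, 91.6 and 132 CPM in control and 8.25, 32 and 12.9 CPM in Stat92E-RNAi libraries, without overlap, a change of -2.87 ± 0.48, adjusted p = 0.00724. Among the Stat92E-RNAi libraries leg 1 held the most of each of these transcripts.

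Hr3 (FBgn0000448), a nuclear receptor gene of the late-larval response, stood at 306, 491, 212 and 394 CPM in control and 1.34, 27.1 and 1.83 CPM in Stat92E-RNAi libraries. The groups were separated, with a change of -5.32 ± 1.13, adjusted p = 0.0176. For Hr3 the change was -4.42 (adjusted p = 0.0589) without Stat92E-RNAi eye-antennal 2, -7.79 (adjusted p = 0.00168) without Stat92E-RNAi leg 1, -5.92 (adjusted p = 0.0311) without control leg 1 and -5.33 (adjusted p = 0.0637) without control leg 2. Blimp-1, which encodes a repressor that times the response, stood at 127, 165, 146 and 202 CPM in control and 3.2, 35 and 6.19 CPM in Stat92E-RNAi libraries, again separated (-3.81 ± 0.79, adjusted p = 0.0159). For Blimp-1 the change was -3.11 (adjusted p = 0.0578) without Stat92E-RNAi eye-antennal 2, -5.14 (adjusted p = 0.00128) without Stat92E-RNAi leg 1 and -3.89 (adjusted p = 0.0575) without control leg 2. The adjusted p of ImpE1, whose change was -2.25 ± 0.48, adjusted p = 0.0174, was 0.0565 without Stat92E-RNAi eye-antennal 2, 0.0649 without Stat92E-RNAi leg 2 and 0.063 without control leg 2. In luciferase tumours Hr3 stood at 11.6, 29.9, 3.12 and 2.19 CPM and ImpE2 at 218, 260.2, 69.6 and 66 CPM.

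Among the genes of this list that rose were 2 nuclear receptor genes. EcR, the ecdysone receptor gene, stood at 122, 119, 145 and 135 CPM in control and 291, 213 and 292 CPM in Stat92E-RNAi libraries, above control in every library, with a change of 0.97 ± 0.13, adjusted p = 0.00312. ftz-f1 (FBgn0001078), a nuclear receptor gene that is normally switched on once the hormone has fallen, stood at 13.9, 13.3, 11.7 and 9.68 CPM in control and 89.3, 50.6 and 97.2 CPM in Stat92E-RNAi libraries, with no overlap and a change of 2.70 ± 0.22, adjusted p = 0.000934. Luciferase tumours had 102, 85.6, 95 and 83.2 CPM. The receptor partner gene usp had a change of -0.07 ± 0.07, adjusted p = 0.452. Ldh, the lactate dehydrogenase gene, which is turned down at the end of larval growth, stood at 23.9, 29.2, 23.5 and 51.5 CPM in control and 69.3, 151 and 183 CPM in Stat92E-RNAi libraries, a change of 1.79 ± 0.32, adjusted p = 0.0092, and luciferase tumours had 1951, 87.3, 3141 and 386 CPM. Eip75B, a nuclear receptor gene, differed between the tumour genotypes. It stood at 327, 386, 284 and 368 CPM in control and 289, 203 and 259 CPM in Stat92E-RNAi libraries and at 129, 157, 109.9 and 111 CPM in luciferase tumours, higher in Stat92E-RNAi than in luciferase tumours (1.00 ± 0.11, adjusted p = 0.0127). Its change against control was -0.48 ± 0.14, adjusted p = 0.0477. For Eip75B the adjusted p was 0.136 without Stat92E-RNAi eye-antennal 2, 0.125 without Stat92E-RNAi leg 1, 0.0821 without Stat92E-RNAi leg 2, 0.10 without control eye-antennal 2 and 0.115 without control leg 2.

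**Figure D2:**
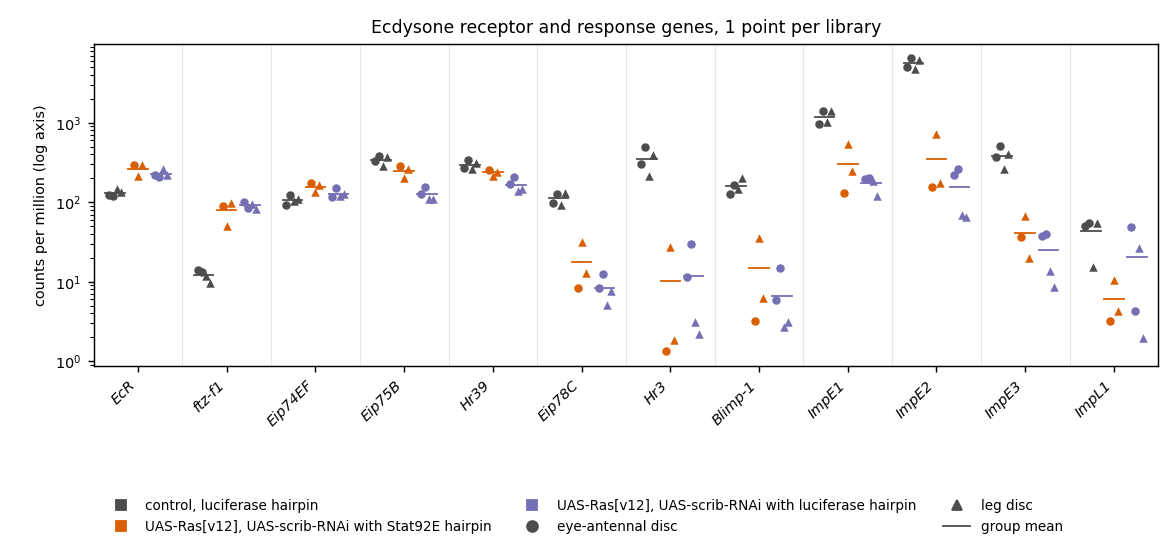
Level of 12 genes of the ecdysone response in CPM on a log axis, drawn as in the plot of signalling genes. ImpE2, ImpE3, Eip78C, Hr3 and Blimp-1 show all Stat92E-RNAi points below all control points, and EcR and ftz-f1 show them above.

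In each list of patterning genes falls outnumbered rises over all 7 libraries. In the list for eye and retina 0 rose and 5 fell of 21 against control, with a median of -0.41. The share that fell was 23.8%, against 14.8% of all tested genes. In luciferase tumours 17 of 21 fell against control, in a fit in which 18.8% of all tested genes fell. Directly against luciferase tumours, 6 of 21 were higher and 0 lower in Stat92E-RNAi tumours, against 2.26% and 2.28% of all tested genes. Calls of that comparison varied strongly with the libraries used, as given below. Against control the rises of this list numbered 2 without Stat92E-RNAi eye-antennal 2, and its falls 2 without Stat92E-RNAi eye-antennal 2 and 8 without Stat92E-RNAi leg 2. The falls were among the 10 genes of retinal determination (50%). For the 11 genes of retinal differentiation 0 rose and 0 fell, with a median of -0.09. The Pax gene toe stood at 44, 61.8, 12.8 and 22.9 CPM in control and 25.3, 6.33 and 5.56 CPM in Stat92E-RNAi libraries, below control of the same disc in every library, with a change of -1.42 ± 0.27, adjusted p = 0.0109. dac (FBgn0005677), a nuclear factor gene needed in eye and leg, stood at 318, 273, 565 and 601 CPM in control and 236, 406 and 362 CPM in Stat92E-RNAi libraries, a change of -0.55 ± 0.10, adjusted p = 0.00796. Luciferase tumours had 30, 68.5, 79.2 and 136 CPM of dac, and Stat92E-RNAi tumours were above them (1.98 ± 0.31, adjusted p = 0.0294). Against luciferase tumours dac was at 1.76 (adjusted p = 0.113) without Stat92E-RNAi eye-antennal 2, 1.99 (adjusted p = 0.103) without Stat92E-RNAi leg 1, 2.07 (adjusted p = 0.0919) without Stat92E-RNAi leg 2 and 1.87 (adjusted p = 0.0996) without luciferase tumour leg 1. eya, the gene of a phosphatase and coactivator that starts retinal development, stood at 364, 386, 21.3 and 25.7 CPM in control and 223, 14 and 30 CPM in Stat92E-RNAi libraries and at 59.5, 104, 5.36 and 5.09 CPM in luciferase tumours. Its change against control was -0.44 ± 0.28, adjusted p = 0.266. Against luciferase tumours it was 1.76 ± 0.32, adjusted p = 0.0413. Against luciferase tumours eya was at 1.99 (adjusted p = 0.0839) without Stat92E-RNAi eye-antennal 2, 1.94 (adjusted p = 0.0826) without Stat92E-RNAi leg 1, 1.41 (adjusted p = 0.0706) without Stat92E-RNAi leg 2, 1.66 (adjusted p = 0.0942) without luciferase tumour eye-antennal 1, 1.72 (adjusted p = 0.126) without luciferase tumour leg 1 and 1.66 (adjusted p = 0.0931) without luciferase tumour leg 2.

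ci (FBgn0004859), the transcription factor of the Hedgehog pathway and a gene of anterior cells, overlapped its control level in Stat92E-RNAi tumours and was low in luciferase tumours. It stood at 712, 697, 604 and 598 CPM in control and 608, 714 and 544 CPM in Stat92E-RNAi libraries, with overlapping groups and a change of -0.10 ± 0.11, adjusted p = 0.531. Luciferase tumours had 262, 292, 185 and 237 CPM, below every other library of both groups, with -1.40 ± 0.07, adjusted p = 5.76e-05 against control and 1.36 ± 0.14, adjusted p = 0.0127 for Stat92E-RNAi against luciferase tumours. The call against luciferase tumours held in each of the 7 fits that leave out 1 library. en (FBgn0000577), the selector gene of posterior cells, in which the hairpins are expressed, stood at 34.5, 35.3, 103 and 102 CPM in control and 29.4, 32.9 and 26.7 CPM in Stat92E-RNAi libraries and at 54.4, 70.5, 59.8 and 83.4 CPM in luciferase tumours. In leg discs the Stat92E-RNAi libraries were below both controls, and in the eye-antennal disc the difference was smaller. The change was -1.21 ± 0.32, adjusted p = 0.0327. For en the change was -1.8 (adjusted p = 0.0031) without Stat92E-RNAi eye-antennal 2, -1.06 (adjusted p = 0.0998) without Stat92E-RNAi leg 1, -0.94 (adjusted p = 0.099) without Stat92E-RNAi leg 2, -1.12 (adjusted p = 0.0714) without control leg 1 and -1.04 (adjusted p = 0.0768) without control leg 2. Against luciferase tumours it was -1.23 ± 0.15, adjusted p = 0.0176. Against luciferase tumours en was at -1.28 (adjusted p = 0.0755) without Stat92E-RNAi leg 1 and -1.13 (adjusted p = 0.0645) without Stat92E-RNAi leg 2. inv, the neighbour and partner of en, had a change of -0.31 ± 0.30, adjusted p = 0.448 against control. The share of posterior cells in the discs was not measured, and its part in these values was not tested.

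Of 15 Wingless and Dpp genes 1 rose and 4 fell (26.7% fell), the falls numbering 1 without Stat92E-RNAi leg 1, 1 without Stat92E-RNAi leg 2, 1 without control eye-antennal 2 and 1 without control leg 2. brk, which encodes a repressor of Dpp targets, stood at 89.3, 103, 98.2 and 121 CPM in control and 145, 201 and 214 CPM in Stat92E-RNAi libraries, with no overlap and a change of 0.74 ± 0.12, adjusted p = 0.0064, and the ligand gene Wnt5 had a change of -0.33 ± 0.05, adjusted p = 0.00373. In the leg and antenna list 1 rose and 7 fell of 18 (38.9% fell), with a median of -0.27. Its falls numbered 3 without Stat92E-RNAi leg 2, 4 without control eye-antennal 1, 4 without control leg 1 and 3 without control leg 2. Its rises numbered 0 without Stat92E-RNAi leg 2, 2 without control eye-antennal 1, 0 without control eye-antennal 2 and 0 without control leg 1. bab2, a gene of distal leg and antennal segments, stood at 137, 170.1, 342 and 362 CPM in control and 117, 233 and 177 CPM in Stat92E-RNAi libraries, a change of -0.68 ± 0.15, adjusted p = 0.0157. The Hox gene Ubx, normally on in the third leg, stood at 3.06, 0.867, 31.6 and 54.6 CPM in control and 0.372, 13.5 and 10.7 CPM in Stat92E-RNAi libraries. It was below control of the same disc in every library (-1.98 ± 0.44, adjusted p = 0.018). For Ubx the change was -1.86 (adjusted p = 0.0581) without Stat92E-RNAi eye-antennal 2, -1.86 (adjusted p = 0.0745) without Stat92E-RNAi leg 2 and -1.66 (adjusted p = 0.0627) without control leg 2. Notch genes gave 0 rises and 5 falls among 14, with a median of -0.35 (35.7% fell). The falls numbered 0 without Stat92E-RNAi eye-antennal 2, 3 without Stat92E-RNAi leg 2, 3 without control eye-antennal 1, 2 without control eye-antennal 2, 3 without control leg 1 and 0 without control leg 2. The rises numbered 2 without Stat92E-RNAi eye-antennal 2, so that the direction of the calls turned without this library. The Notch output E(spl)m2-BFM stood at 82.7, 102, 72.3 and 78.8 CPM in control and 50.9, 59.7 and 38.4 CPM in Stat92E-RNAi libraries and at 20.8, 29.3, 18 and 20.3 CPM in luciferase tumours. Its change against control was -0.77 ± 0.18, adjusted p = 0.0212. For E(spl)m2-BFM the change was -0.64 (adjusted p = 0.111) without Stat92E-RNAi eye-antennal 2, -0.62 (adjusted p = 0.0542) without Stat92E-RNAi leg 2 and -0.72 (adjusted p = 0.0646) without control leg 2.

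**Figure D3:**
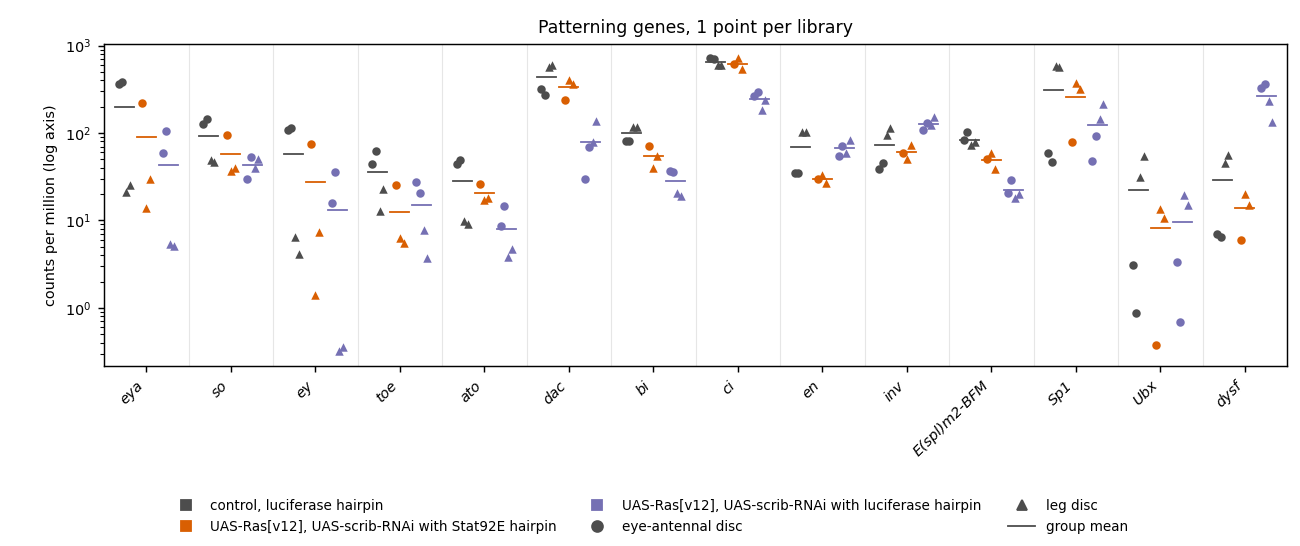
Level of 14 patterning genes in CPM on a log axis, drawn as in the plot of signalling genes. For ci the Stat92E-RNAi points overlap the control points and the luciferase tumour points lie below, and for eya and dac the Stat92E-RNAi points lie between the groups or overlap control.

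Polarity genes gave 1 rise (5.26%) and 5 falls (26.3%) among 19. The falls numbered 2 without Stat92E-RNAi eye-antennal 2 and 2 without control leg 2. They numbered 3 without Stat92E-RNAi leg 2, control eye-antennal 2 or control leg 1. l(2)gl, which encodes the partner of Scribble in the basolateral module, stood at 448, 466, 427 and 472 CPM in control and 645, 584 and 652 CPM in Stat92E-RNAi libraries, above control in every library, with a change of 0.42 ± 0.07, adjusted p = 0.00663. arm, the beta-catenin gene, had a change of -0.26 ± 0.04, adjusted p = 0.00411. Of 16 genes for matrix and invasion 6 rose (37.5%) and 1 fell (6.25%). The rises numbered 3 without Stat92E-RNAi leg 1, 2 without Stat92E-RNAi leg 2, 3 without control eye-antennal 1 and 3 without control leg 1. The matrix falls numbered 0 without Stat92E-RNAi eye-antennal 2, 2 without Stat92E-RNAi leg 1 and 2 without Stat92E-RNAi leg 2, and the rises of polarity genes 2 without Stat92E-RNAi leg 1. In the actomyosin list 2 rose and 2 fell of 12 (16.7% each), shares near those of all tested genes. The falls numbered 0 without Stat92E-RNAi eye-antennal 2. They numbered 1 without Stat92E-RNAi leg 2, control eye-antennal 2, control leg 1 or control leg 2. Moe, the moesin gene, stood at 963, 967, 1021 and 994 CPM in control and 1388, 1263 and 1475 CPM in Stat92E-RNAi libraries, a change of 0.42 ± 0.06, adjusted p = 0.00367.

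Cell cycle genes gave 7 rises (31.8%) and 3 falls (13.6%) among 22. The rises numbered 3 without Stat92E-RNAi eye-antennal 2, 2 without Stat92E-RNAi leg 2, 2 without control eye-antennal 2, 2 without control leg 1 and 3 without control leg 2. The falls numbered 0 without Stat92E-RNAi eye-antennal 2, 1 without Stat92E-RNAi leg 1, 0 without Stat92E-RNAi leg 2 and 0 without control leg 1. RnrL, the large subunit gene of ribonucleotide reductase, stood at 149.8, 129, 169 and 150.4 CPM in control and 224, 214 and 248 CPM in Stat92E-RNAi libraries, without overlap, a change of 0.54 ± 0.08, adjusted p = 0.00409. Among cell death genes 4 rose (30.8%) and 1 fell (7.69%) of 13, the rises numbering 2 without control eye-antennal 1. Corp (FBgn0030028), a target and inhibitor of p53, stood at 1.61, 1.53, 2.11 and 2.81 CPM in control and 10.3, 11.3 and 16.6 CPM in Stat92E-RNAi libraries, with no overlap and a change of 2.52 ± 0.23, adjusted p = 0.0011. p53 itself stood at 17, 16.2, 19.3 and 19.2 CPM in control and 33.5, 27.6 and 33.8 CPM in Stat92E-RNAi libraries, a change of 0.75 ± 0.11, adjusted p = 0.00376, and luciferase tumours had 52.6, 64, 48.6 and 45.4 CPM. The p53 level in Stat92E-RNAi tumours thus lay between both groups, and the change against luciferase tumours was -0.73 ± 0.11, adjusted p = 0.0242. Against luciferase tumours p53 was at -0.69 (adjusted p = 0.0769) without Stat92E-RNAi eye-antennal 2, -0.67 (adjusted p = 0.0886) without Stat92E-RNAi leg 1, -0.82 (adjusted p = 0.0558) without Stat92E-RNAi leg 2, -0.76 (adjusted p = 0.0501) without luciferase tumour eye-antennal 1 and -0.69 (adjusted p = 0.0682) without luciferase tumour leg 1. rpr, a death inducer gene, had a change of 0.51 ± 0.17, adjusted p = 0.0656, and hid, another one, a change of 0.27 ± 0.07, adjusted p = 0.0228. For hid the adjusted p was 0.107 without Stat92E-RNAi eye-antennal 2, 0.0572 without control eye-antennal 1 and 0.0574 without control eye-antennal 2.

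Heat shock and antioxidant genes gave 3 rises and 3 falls among 16, shares of 18.8% and 18.8% that were near those of all tested genes. The rises numbered 5 without Stat92E-RNAi leg 1. The catalase gene Cat stood at 444, 539, 442 and 543 CPM in control and 233, 226 and 197 CPM in Stat92E-RNAi libraries, with all Stat92E-RNAi libraries lower and a change of -1.22 ± 0.13, adjusted p = 0.00159. Gclc, the gene of the catalytic subunit for glutathione synthesis, stood at 26.2, 36, 17.6 and 22.2 CPM in control and 61.5, 47 and 72.3 CPM in Stat92E-RNAi libraries, a change of 1.28 ± 0.23, adjusted p = 0.00884, and GstD1 had a change of 0.98 ± 0.11, adjusted p = 0.00203. The small heat shock protein gene Hsp27 had a change of -1.43 ± 0.17, adjusted p = 0.00265. Of 29 glutathione S-transferase genes 11 rose (37.9%) and 3 fell (10.3%), with a median of 0.56. The rises numbered 7 without Stat92E-RNAi eye-antennal 2 and 7 without Stat92E-RNAi leg 2. The falls numbered 1 without Stat92E-RNAi eye-antennal 2. GstD3 (FBgn0010039), a member of this detoxifying family, stood at 28.6, 34, 47.6 and 52.3 CPM in control and 196, 222 and 254 CPM in Stat92E-RNAi libraries, with no overlap and a change of 2.35 ± 0.12, adjusted p = 0.000348. Of 45 cytochrome P450 genes 17 rose (37.8%) and 5 fell (11.1%), with a median of 0.26 and changes from -9.43 to 6.49. The P450 falls numbered 3 without Stat92E-RNAi eye-antennal 2 and 3 without Stat92E-RNAi leg 1. Genes of the GstD, GstE and Cyp6a groups have near-identical copies, so that values for single members are uncertain.

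Among Toll and Imd genes, 2 rose and 2 fell of 13 (15.4% each), shares near those of all tested genes. Their rises numbered 4 without Stat92E-RNAi leg 1. Their falls numbered 1 without Stat92E-RNAi eye-antennal 2, 1 without Stat92E-RNAi leg 2, 1 without control eye-antennal 2 and 1 without control leg 2. Dif (FBgn0011274), an NF-kappaB gene of the Toll pathway, stood at 10.5, 10.7, 3.28 and 3.87 CPM in control and 56.5, 29.2 and 64.6 CPM in Stat92E-RNAi libraries, with no overlap and a change of 3.11 ± 0.39, adjusted p = 0.00281. For Dif the change was 3.69 (adjusted p = 0.00909) without Stat92E-RNAi eye-antennal 2. PGRP-SA, a secreted sensor gene of bacterial peptidoglycan, stood at 5.28, 8.13, 1.24 and 2.81 CPM in control and 21, 17.2 and 26.7 CPM in Stat92E-RNAi libraries, a change of 2.64 ± 0.50, adjusted p = 0.0108. For PGRP-SA the change was 3.4 (adjusted p = 0.0144) without Stat92E-RNAi eye-antennal 2. The receptor gene Tl was lower, at 142, 180.4, 142 and 183 CPM in control and 64.5, 82.6 and 64.1 CPM in Stat92E-RNAi libraries, a change of -1.28 ± 0.17, adjusted p = 0.0030. Only 1 of the 12 antimicrobial peptide genes of the list passed the minimum level, and it was not called. Cuticular protein genes gave 10 rises (27%) and 3 falls (8.11%) among 37, with a median of 0.53. The falls numbered 1 without Stat92E-RNAi leg 1 and 1 without Stat92E-RNAi leg 2. Cpr49Ah, which encodes a structural cuticle protein, stood at 0.765, 0.867, 0.947 and 1.31 CPM in control and 10.3, 13.6 and 28.3 CPM in Stat92E-RNAi libraries, a change of 3.92 ± 0.33, adjusted p = 0.000934. The chitinase gene Cht7 stood at 30.4, 29.1, 37.5 and 38.1 CPM in control and 114, 97.6 and 166 CPM in Stat92E-RNAi libraries and at 46.3, 53.5, 78.1 and 76.1 CPM in luciferase tumours, and its change against control was 1.79 ± 0.17, adjusted p = 0.00138. Of 12 piRNA genes 3 rose (25%) and 1 fell (8.33%). AGO3 had a change of 1.68 ± 0.29, adjusted p = 0.00697. krimp, a Tudor-domain gene of the same germline pathway, was lower. It stood at 6.27, 6.4, 8.81 and 7.0 CPM in control and 1.86, 1.39 and 2.18 CPM in Stat92E-RNAi libraries. Its change was -2.05 ± 0.26, adjusted p = 0.00272.

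Proteasome subunit genes were lower together by a small amount. Of 33 genes 0 rose and 23 fell (69.7%), all 33 changes were below 0, and the median was -0.29. The falls numbered 6 without Stat92E-RNAi eye-antennal 2, 11 without Stat92E-RNAi leg 2 and 29 without Stat92E-RNAi leg 1. Over all genes these fits called 611 falls of 8888 genes, 792 of 8900 and 1142 of 8970. The lid subunit gene Rpn7 stood at 210.4, 209, 214 and 199.8 CPM in control and 138, 169 and 145 CPM in Stat92E-RNAi libraries, without overlap, a change of -0.53 ± 0.08, adjusted p = 0.00436. Cytosolic ribosomal protein genes gave 13 rises (15.9%) and 3 falls (3.66%) among 82, with a median of 0.06. Their share of rises was near that of all tested genes (16.7%). Their rises numbered 7 without control eye-antennal 1, 7 without control eye-antennal 2 and 8 without control leg 1, and their falls 1 without Stat92E-RNAi eye-antennal 2, 7 without control leg 1 and 1 without control leg 2. Mitochondrial ribosomal protein genes gave 10 rises (14.3%) and 1 fall (1.43%) among 70, both shares below those of all tested genes. The rises numbered 2 without Stat92E-RNAi eye-antennal 2 and 4 without control leg 1. They numbered 5 without Stat92E-RNAi leg 2, control eye-antennal 1, control eye-antennal 2 or control leg 2. In nuclear genes of oxidative phosphorylation 6 rose (9.52%) and 1 fell (1.59%) of 63, both shares below those of all tested genes. Here the rises numbered 2 without Stat92E-RNAi leg 2, 3 without control eye-antennal 2, 2 without control leg 1 and 2 without control leg 2, and the fall was called only without Stat92E-RNAi leg 1 among the fits that leave out 1 library.

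Of the genes of the mitochondrial genome 6 of 37 were tested and 5 fell (83.3% of those tested), with a median of -8.82. mt:CoIII (FBgn0013676), a subunit gene of cytochrome oxidase, stood at 186, 171, 172 and 164 CPM in control and 0.223, 0.418 and 0.352 CPM in Stat92E-RNAi libraries, which is 14 reads in all 3 Stat92E-RNAi libraries, and its change was -9.03 ± 0.13, adjusted p = 1.45e-06. mt:ND5 stood at 25, 22.7, 24.6 and 21.6 CPM in control and had no read in Stat92E-RNAi libraries, where the limit of 3 reads over the group corresponds to 0.0714 CPM. mt:CoIII was between 0.152 and 0.32 CPM in luciferase tumours and at most at 1.8 CPM in the other tumour genotypes, in eye-antennal and leg discs. Its level in wing disc libraries was not compared. The part of the larger share of non-unique alignments in these values was not tested.

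The Hedgehog and compartment list gave 0 rises and 2 falls among 10, the falls numbering 1 without Stat92E-RNAi leg 1, 1 without Stat92E-RNAi leg 2, 1 without control eye-antennal 1, 1 without control eye-antennal 2, 0 without control leg 1 and 0 without control leg 2. The Hox list gave 0 rises and 2 falls among 6, the falls numbering 0 without Stat92E-RNAi eye-antennal 2, 1 without Stat92E-RNAi leg 1, 0 without Stat92E-RNAi leg 2, 1 without control eye-antennal 1, 1 without control leg 1 and 1 without control leg 2 and the rises 1 without control eye-antennal 1. In the glycolysis list Ldh was the rise and Tpi, the triose phosphate isomerase gene, the fall among 11 (-0.29, adjusted p = 0.0491). For Tpi the adjusted p was 0.122 without Stat92E-RNAi leg 1, 0.149 without Stat92E-RNAi leg 2, 0.0638 without control eye-antennal 1, 0.0704 without control eye-antennal 2, 0.0928 without control leg 1 and 0.142 without control leg 2. The rises of the list numbered 2 without Stat92E-RNAi leg 1. Chitin enzyme genes gave 2 rises and 2 falls among 13, the rises numbering 1 without Stat92E-RNAi eye-antennal 2, 1 without Stat92E-RNAi leg 2, 1 without control eye-antennal 1 and 1 without control eye-antennal 2 and the falls 1 without Stat92E-RNAi eye-antennal 2, 1 without Stat92E-RNAi leg 2 and 1 without control leg 2. The Osiris genes, which are expressed in cuticle-forming cells, gave 2 rises and 0 falls among 8, the rises numbering 0 without Stat92E-RNAi eye-antennal 2, 0 without Stat92E-RNAi leg 2, 1 without control eye-antennal 1, 1 without control eye-antennal 2, 1 without control leg 1 and 1 without control leg 2. Osiris falls numbered 1 without control leg 1. The shares that rose and fell were 0% and 20% in the Hedgehog list and 0% and 33.3% in the Hox list. They were 9.09% and 9.09% for glycolysis, 15.4% and 15.4% for chitin enzymes and 25% and 0% for Osiris genes. For the Beat and Dpr genes that follow they were 4.44% and 4.44%. Genes for Beat and Dpr surface proteins, which act in neuronal recognition, gave 2 rises and 2 falls among 45 with a median of -1.33, the rises numbering 1 without Stat92E-RNAi leg 1, 1 without control eye-antennal 1 and 1 without control leg 1 and the falls 1 without Stat92E-RNAi eye-antennal 2, 1 without Stat92E-RNAi leg 2, 1 without control eye-antennal 1, 1 without control eye-antennal 2, 1 without control leg 1 and 17 without control leg 2.

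**Figure D4:**
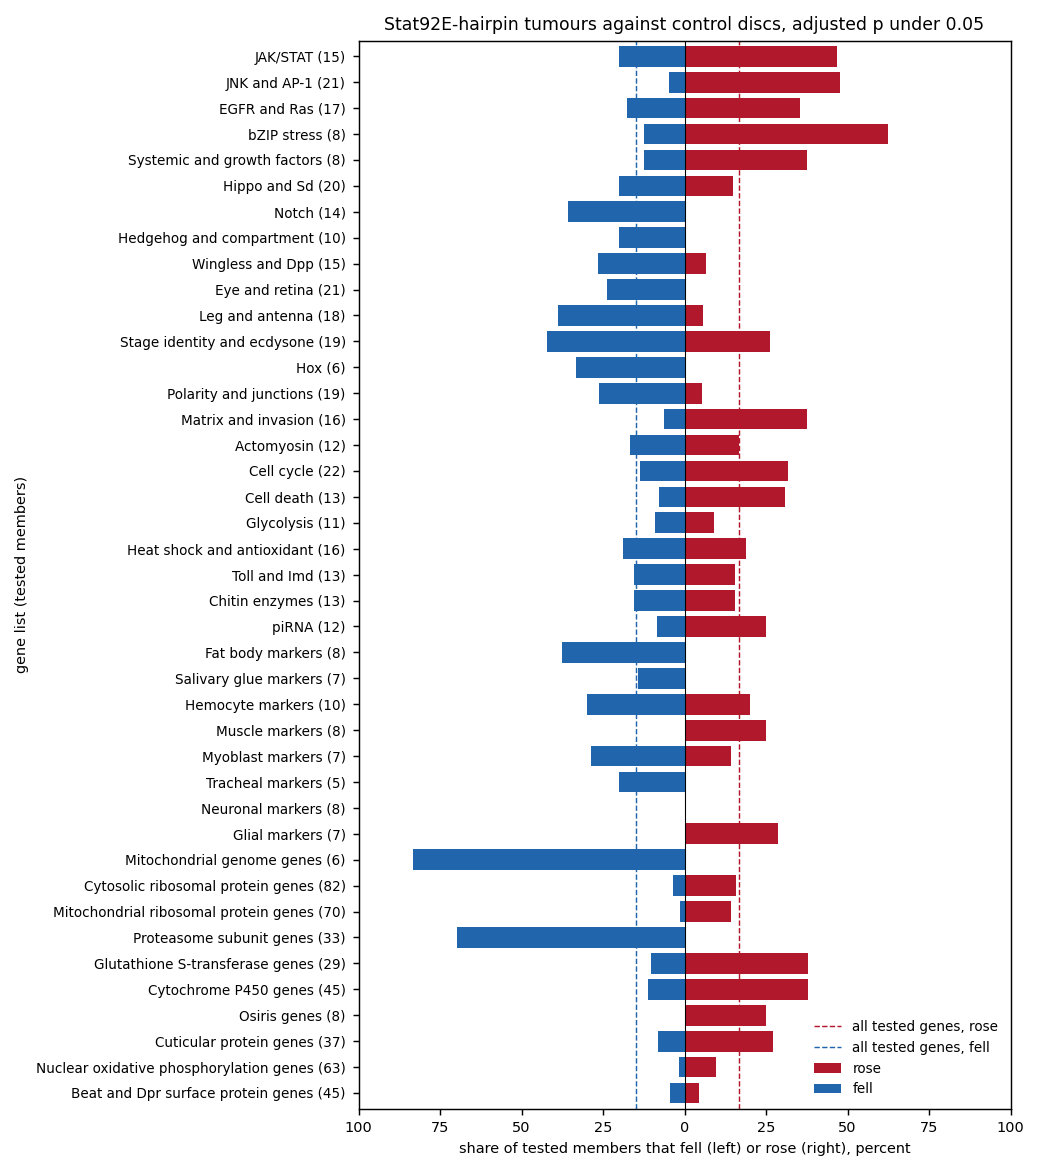
Percent of tested members that fell (bars to the left) or rose (bars to the right) in Stat92E-RNAi tumours against control for 41 gene lists and families, with dashed lines at the percent over all tested genes (14.8 fell, 16.7 rose). Proteasome and mitochondrial genome genes have no bar to the right, and JNK, JAK/STAT and bZIP stress genes have longer bars to the right than all genes.

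By size, the 12 largest rises among genes with a symbol other than a CG or CR number, genes of the mitochondrial genome left aside, with separated libraries and a group mean of 10 CPM or more were those of Cyp6a17, Ilp8, Cyp6a20, TwdlV, Arc1, Tig, Ets21C, GstE6, drd, upd3, reb and Sodh2. Control leg 2 was the highest control library for 9 of these 12. Tig, which encodes the matrix protein Tiggrin, stood at 33.3, 39.9, 13.7 and 16.9 CPM in control and 397, 379.9 and 464 CPM in Stat92E-RNAi libraries, with no overlap and a change of 4.18 ± 0.31, adjusted p = 0.000825. Sodh2, a sorbitol dehydrogenase gene, stood at 0.918, 1.73, 2.11 and 3.81 CPM in control and 35.4, 28.4 and 41.6 CPM in Stat92E-RNAi libraries, a change of 3.94 ± 0.37, adjusted p = 0.00134. Cyp6a17, a cytochrome P450 gene, stood at 0.0765, 0, 0 and 1.31 CPM in control and 29.6, 32.7 and 45 CPM in Stat92E-RNAi libraries, a change of 6.49 ± 0.85, adjusted p = 0.0034. For Cyp6a17 the change was 5.78 (adjusted p = 0.0204) without Stat92E-RNAi eye-antennal 2 and 9.95 (adjusted p = 0.000541) without control leg 2. Arc1, which encodes a retroviral Gag-like capsid protein, stood at 30.3, 32.5, 17.9 and 117 CPM in control and 1171, 669.9 and 949 CPM in Stat92E-RNAi libraries. Its change was 4.19 ± 0.71, adjusted p = 0.00856. For Arc1 the change was 3.55 (adjusted p = 0.0599) without Stat92E-RNAi eye-antennal 2 and 5.34 (adjusted p = 0.000291) without control leg 2. TwdlV, a gene of the Tweedle family of cuticle proteins, stood at 0, 0, 0.656 and 0.50 CPM in control and 10.6, 7.66 and 12.8 CPM in Stat92E-RNAi libraries and at 0.685, 1.52, 0.16 and 1.63 CPM in luciferase tumours. It was high in Stat92E-RNAi libraries alone among these 3 groups (5.25 ± 0.88, adjusted p = 0.00705 against control). For TwdlV the change was 4.12 (adjusted p = 0.0151) without Stat92E-RNAi eye-antennal 2 and 5.97 (adjusted p = 0.0116) without Stat92E-RNAi leg 1. The other changes were 5.63 for Cyp6a20 (7.18 (adjusted p = 0.00204) without control leg 2), 4.09 for GstE6 (3.43 (adjusted p = 0.0475) without Stat92E-RNAi eye-antennal 2 and 5.28 (adjusted p = 0.00188) without control leg 2), 4.01 for drd (2.88 (adjusted p = 0.014) without Stat92E-RNAi eye-antennal 2, 4.6 (adjusted p = 0.00972) without Stat92E-RNAi leg 1 and 4.71 (adjusted p = 0.00854) without control leg 2) and 3.98 for reb (4.7 (adjusted p = 0.0174) without Stat92E-RNAi eye-antennal 2). Among CG numbers the largest rises were those of CG14565 (7.10), CG12607 (6.68), CG14695 (6.15) and CG1494 (6.0). The change of CG14565 was 5.12 (adjusted p = 0.0272) without Stat92E-RNAi eye-antennal 2, 6.38 (adjusted p = 0.0136) without control eye-antennal 2 and 8.47 (adjusted p = 0.00811) without control leg 2, that of CG12607 5.8 (adjusted p = 0.0391) without Stat92E-RNAi eye-antennal 2 and 10.9 (adjusted p = 0.00627) without control leg 2, that of CG14695 7.05 (adjusted p = 0.00303) without control leg 2 and that of CG1494 6.64 (adjusted p = 0.000978) without control leg 2.

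The 12 largest falls by the same rule, again without genes of the mitochondrial genome (mt:CoIII, described above, is one of these), were those of Cyp4p2, Eig71Ee, Reepl1, Fbp1, y, Hr3, NimC2, Fbp2, Obp99b, Spn100A, ImpE2 and TotA. y (FBgn0004034), the yellow gene of cuticle pigment, stood at 270.4, 259.9, 530 and 518 CPM in control and 6.24, 6.68 and 11.4 CPM in Stat92E-RNAi libraries, with no overlap and a change of -5.76 ± 0.20, adjusted p = 7.19e-05. Cyp4p2 (FBgn0033395), a cytochrome P450 gene, stood at 103, 126, 104 and 128 CPM in control and 0.0743, 0.0696 and 0.352 CPM in Stat92E-RNAi libraries, which is 7 reads over the Stat92E-RNAi libraries, and its change was -9.43 ± 0.32, adjusted p = 6.31e-05. For Cyp4p2 the change was -10.5 (adjusted p = 0.000478) without Stat92E-RNAi leg 2. Reepl1 stood at 39.9, 36.1, 35.9 and 35.9 CPM in control and 0.0743, 0.0696 and 0.211 CPM in Stat92E-RNAi libraries, which is 5 reads over the Stat92E-RNAi libraries, a change of -8.22 ± 0.23, adjusted p = 3.04e-05. For Reepl1 the change was -8.86 (adjusted p = 7.63e-05) without Stat92E-RNAi leg 2. NimC2, a Nimrod receptor gene of blood cells, stood at 41.8, 13.5, 3.35 and 8.12 CPM in control and 0.149, 0.348 and 0.352 CPM in Stat92E-RNAi libraries, a change of -5.23 ± 0.92, adjusted p = 0.00831. For NimC2 the change was -4.04 (adjusted p = 0.0334) without Stat92E-RNAi eye-antennal 2. The fat body genes Fbp1 and Fbp2 had changes of -6.54 and -4.61. For Fbp2 the change was -4.27 (adjusted p = 0.10) without Stat92E-RNAi eye-antennal 2, -3.82 (adjusted p = 0.0207) without control eye-antennal 1 and -4.22 (adjusted p = 0.0629) without control leg 2. For Fbp1 the change was -5.47 (adjusted p = 0.0616) without Stat92E-RNAi eye-antennal 2, -7.65 (adjusted p = 0.0206) without Stat92E-RNAi leg 1, -6.33 (adjusted p = 0.0629) without Stat92E-RNAi leg 2, -5.91 (adjusted p = 0.0125) without control eye-antennal 1, -7.3 (adjusted p = 0.0183) without control leg 1 and -6.11 (adjusted p = 0.0704) without control leg 2. Eig71Ee, an ecdysone-induced gene with 3 reads over the Stat92E-RNAi libraries, stood at 132, 6.73, 0.583 and 9.81 CPM in control. Its adjusted p was 0.0477, and 0.26 without Stat92E-RNAi eye-antennal 2, 0.0954 without Stat92E-RNAi leg 1, 0.103 without Stat92E-RNAi leg 2, 0.0327 without control eye-antennal 1, 0.0251 without control eye-antennal 2, 0.0515 without control leg 1 and 0.114 without control leg 2. For Obp99b, an odorant binding protein gene, the change was -4.48, and -3.7 (adjusted p = 0.0966) without Stat92E-RNAi eye-antennal 2, -4.34 (adjusted p = 0.0534) without Stat92E-RNAi leg 1, -5.13 (adjusted p = 0.0402) without Stat92E-RNAi leg 2, -3.7 (adjusted p = 0.00755) without control eye-antennal 1 and -4.33 (adjusted p = 0.070) without control leg 2. For Spn100A, a serpin gene, it was -4.34, and -3.63 (adjusted p = 0.050) without Stat92E-RNAi eye-antennal 2, -5.51 (adjusted p = 0.00239) without Stat92E-RNAi leg 1 and -4.27 (adjusted p = 0.0538) without control leg 2. Among CG numbers the largest falls were those of CG34296, CG15236, CG17350 and CG16926, and CG34296 had 1 read over the Stat92E-RNAi libraries. The call of CG34296 held in each fit that leaves out 1 library. The change of CG15236 was -6.60, and -7.66 (adjusted p = 0.00876) without Stat92E-RNAi leg 2. The change of CG16926 was -4.10, and -3.41 (adjusted p = 0.127) without Stat92E-RNAi eye-antennal 2, -3.98 (adjusted p = 0.0596) without Stat92E-RNAi leg 1, -4.63 (adjusted p = 0.0516) without Stat92E-RNAi leg 2, -3.24 (adjusted p = 0.0145) without control eye-antennal 1 and -3.85 (adjusted p = 0.0676) without control leg 2. The change of CG17350 was -4.44 ± 0.66, adjusted p = 0.00466. For CG17350 the change was -5.69 (adjusted p = 0.00602) without Stat92E-RNAi eye-antennal 2.

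Against luciferase tumours, the 6 largest falls of Stat92E-RNAi tumours included Cyp4p2, y, Cyp4p1, CG17350 and dysf. Luciferase tumours had 935, 862, 501 and 451 CPM of y, 235, 238, 199 and 105 CPM of Cyp4p2 and 93.1, 108, 76.1 and 57.4 CPM of CG17350. Cyp4p1, another P450 gene, stood at 14.7, 20.7, 14.4 and 19.3 CPM in control and 1.04, 1.18 and 1.06 CPM in Stat92E-RNAi libraries and at 78.4, 89.8, 57.8 and 37 CPM in luciferase tumours. It was lower in Stat92E-RNAi than in either group, with -4.03 ± 0.24, adjusted p = 0.00044 against control and -5.78 ± 0.29, adjusted p = 0.00221 against luciferase tumours. The calls of y, Cyp4p2, Cyp4p1 and CG17350 against luciferase tumours held in each of the 7 fits that leave out 1 library. dysf, a bHLH-PAS gene of trachea and leg joints, stood at 6.96, 6.53, 45.8 and 55.4 CPM in control and 6.02, 20.3 and 14.8 CPM in Stat92E-RNAi libraries and at 329, 359, 234 and 135 CPM in luciferase tumours. Its change against luciferase tumours was -4.25 ± 0.61, adjusted p = 0.0282. Against luciferase tumours dysf was at -4.61 (adjusted p = 0.0826) without Stat92E-RNAi leg 1, -4.31 (adjusted p = 0.105) without Stat92E-RNAi leg 2, -4.18 (adjusted p = 0.0665) without luciferase tumour eye-antennal 1 and -4.25 (adjusted p = 0.108) without luciferase tumour leg 1. On the higher side, Ih, an ion channel gene, stood at 15.4, 14.6, 9.11 and 4.87 CPM in control and 54.9, 25.1 and 41.5 CPM in Stat92E-RNAi libraries and at 8.39, 6.75, 2.56 and 4.53 CPM in luciferase tumours, with 3.03 ± 0.26, adjusted p = 0.00722 against the latter. The other rises named by the rule were TwdlV, CG15905, Obp99a, superdeath and CG42749, and the other fall was CG5399. The call of CG42749 held in each fit that leaves out 1 library. For TwdlV the adjusted p against luciferase tumours was 0.121 without Stat92E-RNAi eye-antennal 2, 0.107 without Stat92E-RNAi leg 1, 0.127 without Stat92E-RNAi leg 2, 0.093 without luciferase tumour eye-antennal 1, 0.0541 without luciferase tumour eye-antennal 2 and 0.0539 without luciferase tumour leg 2. For superdeath it was 0.115 without Stat92E-RNAi leg 1, 0.0966 without Stat92E-RNAi leg 2, 0.0936 without luciferase tumour eye-antennal 1, 0.123 without luciferase tumour leg 1 and 0.062 without luciferase tumour leg 2. For CG15905 it was 0.0576 without Stat92E-RNAi eye-antennal 2, 0.064 without Stat92E-RNAi leg 1, 0.0558 without Stat92E-RNAi leg 2 and 0.0503 without luciferase tumour eye-antennal 1. For Obp99a it was 0.0552 without Stat92E-RNAi eye-antennal 2, 0.082 without Stat92E-RNAi leg 1 and 0.0551 without luciferase tumour leg 1. For CG5399 it was 0.123 without Stat92E-RNAi eye-antennal 2, 0.119 without Stat92E-RNAi leg 1, 0.136 without Stat92E-RNAi leg 2, 0.0927 without luciferase tumour eye-antennal 1 and 0.14 without luciferase tumour leg 1.

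Over the genotypes of the study these genes had unlike patterns in eye-antennal and leg discs, to which the values here are limited. y was between 6.24 and 11.4 CPM in Stat92E-RNAi libraries, 39.5 to 59 in the tumours with a CG6272 hairpin, 15.5 in the kay library, 5.73 to 36.3 in those titled sd and 4.9 to 8.62 in those titled tai, against 260 to 530 in control and 451 to 935 in luciferase tumours. y was thus low in each tumour genotype with a hairpin other than that against luciferase. Cyp4p2 was between 0.0696 and 0.352 CPM in Stat92E-RNAi libraries, 0.197 to 2.04 with CG6272 and 2.43 with kay hairpins, and it was 75.5 to 110 in libraries titled sd and 101 to 205 in those titled tai. The Stat92E-RNAi, CG6272 and kay libraries share a form of name in the labels that no other library has, so that the naming and these genotypes cannot be told apart. CG17350 was at most at 5.79 CPM in each of the tumour genotypes other than luciferase, where it was 57.4 to 108. dysf was between 1.84 and 20.3 CPM in them and 135 to 359 in luciferase tumours. Reepl1 was 35.9 to 39.9 CPM in control and at most at 0.284 in any of the eye-antennal and leg tumour libraries. Any difference in genetic background between the genotypes would follow genotype as well. In the values of these genes it cannot be told apart from the tumour or from a hairpin.

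**Figure D5:**
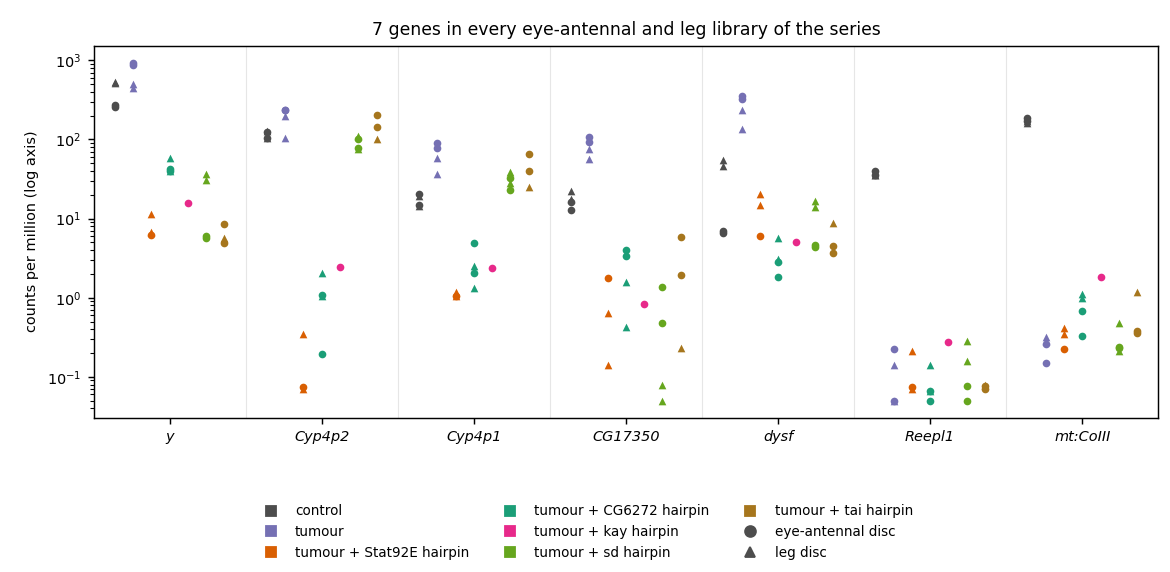
Level of y, Cyp4p2, Cyp4p1, CG17350, dysf, Reepl1 and mt:CoIII in CPM on a log axis in eye-antennal and leg discs of the 7 genotypes of the study, 1 point per library. Values under 0.05 CPM are drawn at 0.05; y is low in every tumour genotype with a hairpin other than luciferase, Cyp4p2 in those of CG6272, Stat92E and kay, and Reepl1 and mt:CoIII in all tumour genotypes.

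Markers of tissues that lie on or next to the discs were summed for each library. Summed fat body markers were between 454.9 and 8566.2 CPM in control and between 40.5 and 486.8 CPM in Stat92E-RNAi libraries, with 0 rises and 3 falls among 8, the falls numbering 0 without Stat92E-RNAi eye-antennal 2, 1 without Stat92E-RNAi leg 2 and 0 without control leg 2. The sum of salivary glue markers lay between 4.81 and 1932.8 CPM in control and between 0.487 and 4.78 CPM in Stat92E-RNAi libraries, and control eye-antennal 1 held the highest sum of both lists. They gave 0 rises and 1 fall among 7, the falls numbering 0 without Stat92E-RNAi eye-antennal 2, 0 without Stat92E-RNAi leg 1, 0 without Stat92E-RNAi leg 2, 2 without control eye-antennal 1, 4 without control eye-antennal 2, 0 without control leg 1 and 0 without control leg 2. Hemocyte markers summed to 608 to 982 CPM in control and to 481 to 659 CPM in Stat92E-RNAi libraries, with 2 rises and 3 falls among 10 genes. For muscle markers the sums were 973 to 1066 CPM and 1060 to 1154 CPM, with 2 rises and 0 falls among 8. Myoblast markers, which mark the muscle precursors on the discs, had sums of 183 to 293 CPM and 188 to 296 CPM, with 1 rise and 2 falls among 7. Neuronal markers summed to 90.1 to 778 CPM and 108 to 466 CPM, with 0 rises and 0 falls among 8. All 8 of their changes were below 0, with a median of -1.44. Glial markers summed to 343 to 528 CPM and 477 to 541 CPM, with 2 rises and 0 falls among 7. Tracheal markers gave 0 rises and 1 fall among 5, and the germline marker that was tested was not called. The share that fell was 37.5% for fat body, 14.3% for salivary glue and 20% for tracheal markers. Shares that rose and fell were 20% and 30% for hemocyte, 25% and 0% for muscle, 14.3% and 28.6% for myoblast and 28.6% and 0% for glial markers. The rises of hemocyte markers numbered 0 without Stat92E-RNAi eye-antennal 2, 0 without Stat92E-RNAi leg 2, 0 without control eye-antennal 1, 1 without control eye-antennal 2, 0 without control leg 1 and 1 without control leg 2, and their falls 0 without Stat92E-RNAi eye-antennal 2. Glial rises numbered 1 without Stat92E-RNAi leg 2, 1 without control eye-antennal 2, 1 without control leg 1 and 0 without control leg 2, and muscle rises 1 without Stat92E-RNAi eye-antennal 2, 1 without Stat92E-RNAi leg 1 and 1 without Stat92E-RNAi leg 2. Myoblast rises numbered 0 without Stat92E-RNAi eye-antennal 2, 0 without Stat92E-RNAi leg 2, 0 without control eye-antennal 1, 0 without control eye-antennal 2 and 0 without control leg 1, and myoblast falls 0 without Stat92E-RNAi eye-antennal 2, 0 without Stat92E-RNAi leg 2, 1 without control eye-antennal 1, 1 without control eye-antennal 2 and 0 without control leg 2. The falls of neuronal markers numbered 1 without control leg 1 and 3 without control leg 2, and the rises of tracheal markers 1 without control leg 2. Fbp1, Fbp2 and NimC2, named above among the largest falls, belong to such tissues, and the part of adhering tissue in their falls was not tested. Among controls these 3 genes were highest in eye-antennal 1 and lowest in leg 1. TotA, Obp99b, CG16926 and Eig71Ee had their highest and lowest control values in the same libraries, and for them too this part was not tested.

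Differences of the change between the discs were few at this size. The test of the difference called 3 of 9020 genes (0.0333%) and 445 at an unadjusted p below 0.05, while DESeq2 called 95. The 445 are about as many as this unadjusted threshold would pass if no gene differed between the discs. CG9747 stood at 22.3, 23.3, 143 and 133 CPM in control and 60.7, 77.5 and 85.2 CPM in Stat92E-RNAi libraries, higher than control in the eye-antennal disc and lower in leg discs. Epac, which encodes an exchange factor activated by cAMP, stood at 16.4, 14.3, 19 and 17.1 CPM in control and 38, 5.85 and 6.12 CPM in Stat92E-RNAi libraries, with the same pattern. Cpr12A, a cuticular protein gene, stood at 9.33, 6.87, 102 and 97.6 CPM in control and 81, 71.8 and 54.4 CPM in Stat92E-RNAi libraries, also higher in the eye-antennal disc and lower in leg discs. The eye-antennal effect rests on 1 Stat92E-RNAi library, which is assumed to vary like the others.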

How the data were processed

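The authors' deposited gene counts were the starting point. TopHat2, HTSeq and the genome build dm3 are named for them, per the submitters' processing notes. For tool versions, annotation and strand mode nothing was given in the sources used here, so that overlapping and antisense genes are uncertain. Per the labels' protocols, replicates 1 and 2 of a genotype are independent dissections. The table held 15348 genes, 14639 of them with a symbol in the reference, and 5 HTSeq summary lines, which were left out of library sizes and tests.

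Genes that reached 1 CPM in 2 or more libraries entered edgeR 4.0.16 (R 4.3.3), with TMM scaling and the robust quasi-likelihood F-test with disc and genotype as terms on the 7 libraries (4 residual degrees of freedom, common biological coefficient of variation 0.224). The Benjamini-Hochberg threshold was 0.05. Stat92E-RNAi against luciferase tumours (7 libraries) and luciferase tumours against control (8 libraries) were fitted alike, and the difference between discs as an interaction. SE is the size of the log2 change over the root of the F value. Depths were 13.1 to 16 M reads in the 7 libraries. p-values measure the spread between these pooled dissections, and discs of the same number may come from the same dissection. Luciferase tumours were collected on day 9 for replicate 1 and on day 11 for replicate 2. In both comparisons with them the spread and the replicate block therefore also hold this difference in age. Deviations from group means correlated at 0.329 (control eye-antennal with control leg), -0.142 and -0.106 (control with Stat92E-RNAi), so that replicate numbers do not pair genotypes.

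The 32 lists and 10 families of genes (466 written list members, 428 matched) and the members described were chosen with earlier results of these data known, and the parent lists they start from were partly chosen after values were seen. Named genes are the targets, the 12 largest rises and falls, the 4 largest among CG and CR numbers, the 6 largest against luciferase tumours, by adjusted p, a group mean of 10 CPM or more and separated libraries, genes of the mitochondrial genome left aside, and list members by size of change or role; which members to add for their role was chosen after their values were seen. Alternatives were other scalings and filters, DESeq2 1.42.0, limma-voom 3.58.1, replicate blocks, other sets of libraries, and each library left out in turn. The scripts were tested on simulated data.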

Additional observations from a re-analysis of the deposited data

Results flagged for a closer look

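For 3 genes the change differed between eye-antennal and leg discs by the interaction test of edgeR. For CG9747 the change was 1.35 ± 0.09 in the eye-antennal disc and -0.81 ± 0.08 in leg discs, with an adjusted p of 0.0305 for the difference. For Epac it was 1.24 ± 0.15 and -1.64 ± 0.13, with an adjusted p of 0.0437. For Cpr12A it was 3.26 ± 0.22 and -0.71 ± 0.18, with an adjusted p of 0.0476. Each eye-antennal value rests on 1 Stat92E-RNAi library, and none of the 3 calls remained when any other library was left out.

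The line for alignments that are not unique, which no comparison uses, held at least 43.0% of all lines in each Stat92E-RNAi library and at most 22.9% in any control library. Luciferase tumour libraries had 54.4% to 75%.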

How the results depend on the processing

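The 2843 calls between Stat92E-RNAi tumours and control became 1268 with leg libraries alone (781 rose, 487 fell), 1573 to 2680 when each library was left out in turn, and 2033 to 3250 under the other settings. With the replicate number as a block 2901 genes were called, and with the dissection as a random replicate block in limma-voom 2033, against 2862 in limma-voom without it. The 408 calls against luciferase tumours became 1481 with DESeq2, 1372 with all 27 libraries in 1 fit, 311 with the replicate number as a block, 181 with the dissection as a random replicate block, and 29 to 359 when each library was left out, lowest without Stat92E-RNAi leg 1. The 4032 calls between luciferase tumours and control ranged from 3235 to 4756 over all settings, and were 3838 with the replicate block. The 3 differences between discs became 95 with DESeq2, 0 with the replicate block and 0 to 0 when each library was left out, and stayed 3 in the other settings. No fit of that difference can be had without Stat92E-RNAi eye-antennal 2.

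The settings were followed for 36 genes, those named by size of change against control and the targets Stat92E, scrib, Ras85D and hh. Of their values under the settings, 652 kept their side of the threshold. Another 67 kept their direction but passed the threshold no longer, and no called change reversed. The change of hh, which was not called, turned from 0.22 to -0.21 without Stat92E-RNAi eye-antennal 2. Calls ended for 14 of the 36 genes with the dissection as a random replicate block, for 9 in limma-voom without it, for 8 each with leg libraries alone, without Stat92E-RNAi eye-antennal 2 and without control leg 2, for 5 without a filter, and for 4 or fewer in the other settings. Where a call was lost the cause was not tested. The single eye-antennal library and 4 residual degrees of freedom limit the precision, and small changes of genes with few reads were not detectable at this depth.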
